A study of Drosophila melanogaster with 72 samples.

Results

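The genes described here are the ecdysone receptor and its classic response genes, 9 of the 17895 genes with an FBgn identifier in the count tables. They were chosen by name: EcR and usp, which encode the receptor, and Eip74EF, Eip75B, Eip78C, Eip93F, br, Hr3 and ftz-f1, which the hormone switches on or off in sequence. All 9 passed the filter on low counts. Their nuclear RNA was followed in outer photoreceptors of male Drosophila at 10 days of age (D10), kept in a 12 h light and 12 h dark cycle, at zeitgeber times ZT0 (lights on), ZT4, ZT8, ZT12 (lights off), ZT16 and ZT20. Every fly carried Rh1-Gal4, which is active in outer photoreceptors, and expressed the nuclear envelope tag GFP-KASH together with 1 of 4 RNAi constructs. The constructs targeted mCherry, a sequence foreign to the fly that serves as the control, or Set1, Trr or Trx, the 3 H3K4 methyltransferases of Drosophila. Tagged nuclei were enriched from pooled heads with anti-GFP beads, so that a group describes the captured nuclei of many flies and not only of cells in which the knockdown acted. Each genotype and time point had 3 libraries, except Set1 RNAi at ZT20 with 2, because 1 library of very few reads was left out, as the authors did. This left 71 libraries in 24 groups.

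Ecdysone is the steroid hormone that drives moulting and metamorphosis, and it is still made in adult flies. In its active form, 20-hydroxyecdysone, it binds a heterodimer of EcR and Ultraspiracle (Usp), the fly counterpart of RXR. The bound receptor switches on early genes that encode transcription factors, among them Eip74EF, Eip75B and br, and these act on later genes such as Eip78C, Hr3, ftz-f1 and Eip93F. Trr is known as a coactivator of EcR.

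Libraries held between 8424081 and 24586538 read pairs on exons. The mCherry and Set1 RNAi libraries were sequenced on a HiSeq instrument and the Trr and Trx RNAi libraries on a NovaSeq X Plus according to the labels, so platform and genotype cannot be told apart when Trr or Trx RNAi is set against the control. The summed level of 12 outer photoreceptor markers was 64730 to 128000 CPM (read pairs counted, scaled to a common library size) in the control, 15380 to 25420 CPM in Trr RNAi and 15050 to 28260 CPM in Trx RNAi, without overlap, and 11 of 11 tested markers fell in each knockdown. Most markers of other cell types were higher in these same libraries, with 5 of 5 fat body and 5 of 6 muscle markers in each, although 1 muscle and 1 brain neuron marker fell in Trx RNAi. Of 5 lens and pigment cell markers 4 rose and 1 fell in each, while their summed level had a median of 1003 CPM in the control, 645.1 CPM in Trr RNAi and 589.5 CPM in Trx RNAi. The part of these shifts in the results below was not tested, and in such bulk samples fewer cells of a type and less RNA per cell cannot be told apart. Set1 and trr RNA did not mark their own libraries, and trx RNA was only slightly lower in its own. Throughout, Set1, Trr and Trx RNAi therefore stand for the libraries labelled so. Set1 RNA was not lower in the libraries labelled Set1 RNAi (log2 fold change -0.03 ± 0.07 SE, edgeR adjusted p = 0.747). trr RNA was about equally low in the libraries labelled Trr RNAi (-0.94 ± 0.06) and Trx RNAi (-0.86 ± 0.06). trx RNA differed from the control by -0.17 ± 0.05 in the libraries labelled Trx RNAi. The paper examined the knockdowns by other means. It reports less bulk H3K4me3 in larvae with ubiquitous Set1 RNAi, and less promoter H3K4me3 by CUT&RUN in photoreceptors with Trx or Trr RNAi. It also measured Set1, trr and trx by qRT-PCR in RNAi lines under a ubiquitous driver.

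In the control, the members differed widely in level. Per kilobase of exon, Eip93F had the highest mean, 108.1 ± 32.7 FPKM (SD over 18 libraries), followed by Eip75B with 59.95 ± 31.4 FPKM and Eip74EF with 55.86 ± 22.8 FPKM. EcR had 35.49 ± 20.9 FPKM and ftz-f1 24.88 ± 7.66 FPKM. The lowest 4 were br with 14.78 ± 3.73 FPKM, usp with 13.28 ± 1.44 FPKM, Hr3 with 7.252 ± 2.38 FPKM and Eip78C with 4.753 ± 1.06 FPKM. The places of Hr3 and ftz-f1 are not certain, because they share 82.704% and 29.379% of their exon bases with other genes. Read pairs on these shared bases were not counted, while the FPKM of both divides by all exon bases. Neighbours in this order lay within the larger of their SDs between Eip75B and ftz-f1, and between br and usp. Averaged over the day, nuclear RNA of the receptor pair was thus unequal, with EcR above usp in mean level per length. At ZT12, where EcR was lowest, this order did not hold. EcR then had a mean of 140.5 CPM over 9934 exon bases, and usp 43.87 CPM over 3038 exon bases. Time of day took up most of the spread of EcR, Eip74EF and Eip75B, for which a 24-h cosine fitted to the control gave R2 of 0.904, 0.877 and 0.877.

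To examine whether the receptor itself varied over the day, EcR was followed at the 6 time points. EcR (FBgn0000546, chromosome arm 2R, 6087873 to 6169087, minus strand, BDGP6.46) was high from ZT16 to ZT0 and low from ZT4 to ZT12 in the control. The 3 control libraries had 464, 503.2 and 462 CPM at ZT0, 231, 165 and 189 CPM at ZT4, and 178, 144 and 150.1 CPM at ZT8. They had 101, 164 and 157 CPM at ZT12, then 493, 498 and 444 CPM at ZT16 and 588, 717 and 699 CPM at ZT20. Every control library taken at ZT16, ZT20 or ZT0 (444 to 717 CPM) was above every one taken at ZT4, ZT8 or ZT12 (101 to 231 CPM). Below, day or day phase stands for ZT4, ZT8 and ZT12, and night for ZT16, ZT20 and ZT0. These are not the light and dark phases, because the paper collected ZT12 as dark phase and ZT0 marks lights on. The mean at ZT20 was 4.75 times the mean at ZT12, and a fitted 24-h cosine had a peak-to-trough size of 2.43 ± 0.20 (SE) on the log2(CPM + 1) scale with its peak at ZT 20.4. The rhythm was past the threshold (edgeR adjusted p = 1.44e-21).

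EcR was nearly flat in Trr and Trx RNAi. Its 18 libraries of Trr RNAi lay between 317 and 390.2 CPM (median 344.5 CPM) and the 18 of Trx RNAi between 287 and 357 CPM (median 329 CPM). Both ranges sat between the day and the night levels of the control and overlapped neither. No 24-h rhythm was called in Trr RNAi (edgeR adjusted p = 0.906) or Trx RNAi (edgeR adjusted p = 1), with cosine sizes of 0.13 ± 0.04 and 0.07 ± 0.06. The change of rhythm itself was past the threshold for both (edgeR adjusted p = 1.49e-13 for Trr and 2.25e-13 for Trx). The difference from the control therefore changed direction within the day. In Trr RNAi, EcR was higher by a log2 fold change of 0.93 ± 0.11 (SE) at ZT4, 1.05 ± 0.11 at ZT8 and 1.28 ± 0.11 at ZT12. It was lower at ZT16 (-0.50 ± 0.11), ZT20 (-0.95 ± 0.11) and ZT0 (-0.39 ± 0.11). Trx RNAi gave 0.79, 0.94 and 1.23 at ZT4, ZT8 and ZT12 and -0.55, -1.06 and -0.49 at ZT16, ZT20 and ZT0, each with an SE of 0.11. All 12 differences were past the threshold with no overlap between the 3 control and the 3 knockdown libraries. In the same order from ZT0 to ZT20, 59.0%, 61.2%, 62.2%, 67.3%, 59.6% and 64.0% of all features differed from the control in Trr RNAi, and 63.5%, 62.9%, 62.9%, 66.0%, 57.5% and 63.9% in Trx RNAi. At ZT0 the call was lost for both where only features with at least 1 CPM in every library were tested, and for Trr without replicate 2.

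Averaged over the 6 time points, these opposite differences nearly cancelled. Mean EcR was higher by 0.23 ± 0.05 in Trr RNAi (edgeR adjusted p = 6.08e-06) and by 0.14 ± 0.05 in Trx RNAi (edgeR adjusted p = 0.00322). Without ZT4, a time point of the day phase, neither mean difference was past the threshold (edgeR adjusted p = 0.169 for Trr and 0.781 for Trx), and without replicate 3 the Trx call was lost as well (0.103).

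**Figure D1:**
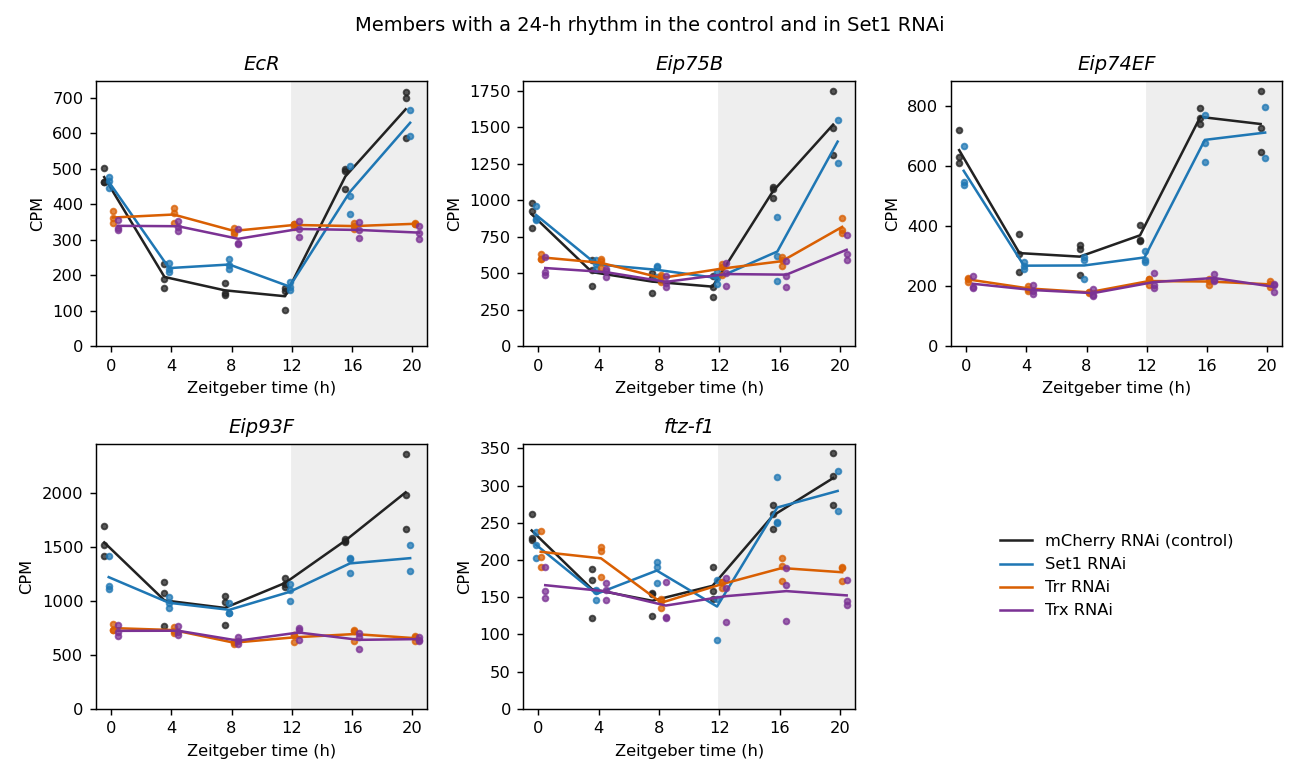
CPM (vertical axis, from 0) against zeitgeber time in hours (horizontal axis) for the 5 members with a 24-h rhythm called in both the control and Set1 RNAi. Points are single libraries, lines join the means of each genotype, and the dark phase is shaded. In EcR the Trr and Trx RNAi libraries (287 to 390.2 CPM) lie between the day and night levels of the control.

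usp (FBgn0003964, chromosome X, 2038798 to 2042311, minus strand), the partner of EcR, showed no such cycle. Its 18 control libraries lay between 31.3 and 48.8 CPM (median 41.3 CPM), and the other genotypes between 24.5 and 45.2 CPM. All 4 ranges overlapped. No rhythm was called in any genotype (edgeR adjusted p = 0.602 in the control), and its cosine size in the control was 0.13 ± 0.11. Mean differences from the control were -0.13 ± 0.06 in Set1 RNAi (edgeR adjusted p = 0.0536), -0.10 in Trr RNAi (0.0954) and -0.12 in Trx RNAi (0.0368). The sign of these for Trr and Trx was not stable. Where only features with at least 1 CPM in every library were tested, usp was higher by 0.11 in Trr RNAi and 0.12 in Trx RNAi, and size factors of DESeq2 put Trx RNAi at 0. Of its exon bases 8.723% are shared with Actn and CG4313.

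Among the early genes, Eip74EF (FBgn0000567, chromosome arm 3L, 17558672 to 17619325, minus strand), which encodes an ETS-domain transcription factor, both cycled in the control and fell in Trr and Trx RNAi. Its control libraries had 790.2, 759 and 738 CPM at ZT16, and 322, 335 and 235 CPM at ZT8. Over the day, the 9 control libraries of ZT16, ZT20 and ZT0 (609 to 847 CPM) did not overlap with the 9 of ZT4, ZT8 and ZT12 (235 to 403 CPM). In Trr RNAi all 18 libraries were between 177 and 227 CPM, and in Trx RNAi between 168 and 242 CPM. All Trr RNAi libraries were thus below the lowest control library of the day phase. At each of the 6 time points the 3 libraries of each knockdown lay below the 3 control libraries. Of all features, 57.5% to 67.3% differed at single time points in these knockdowns, and the share without overlap was not counted.

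Mean Eip74EF was lower by a log2 fold change of -1.24 ± 0.05 in Trr RNAi (edgeR adjusted p = 7.97e-30) and of -1.26 ± 0.05 in Trx RNAi (2.81e-30). The difference was widest at night, -1.85 ± 0.12 for Trr and -1.91 ± 0.13 for Trx at ZT20, against -0.69 ± 0.12 and -0.73 ± 0.12 at ZT4. Its cosine size was 1.62 ± 0.16 in the control, 0.21 ± 0.07 in Trr RNAi and 0.26 ± 0.09 in Trx RNAi, and the change of rhythm was past the threshold in both (edgeR adjusted p = 2.92e-08 and 3.13e-08). In contrast to EcR, whose day and night levels moved toward each other, Eip74EF fell at both phases.

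Eip75B (FBgn0000568, chromosome arm 3L, 17950953 to 18064696, minus strand) encodes a haem-binding nuclear receptor related to mammalian Rev-erb. In the control it had 339, 404 and 479 CPM at ZT12, 1077, 1016 and 1087 CPM at ZT16, and 1496, 1746 and 1312 CPM at ZT20. Its mean at ZT20 was 3.73 times that at ZT12. At ZT20 the Trr RNAi libraries had 799, 876 and 776 CPM and the Trx RNAi libraries 632, 591 and 758 CPM, all below the control. Eip75B was the sole member with a 24-h rhythm called in Trr RNAi (edgeR adjusted p = 0.0179, cosine size 0.62 ± 0.09 with its peak at ZT 20.6). Its cosine in Trx RNAi had a size of 0.42 ± 0.13 and was not past the threshold (edgeR adjusted p = 0.332). The Trr call was lost without each of the 3 replicates in turn, with adjusted p between 0.105 and 0.204.

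The cosine of Eip75B was larger in the control, with a size of 1.93 ± 0.19, and the change of rhythm was past the threshold in both knockdowns (edgeR adjusted p = 3.63e-05 for Trr and 1.81e-06 for Trx). Eip75B was lower in Trr RNAi at ZT16 (-0.87 ± 0.15), ZT20 (-0.89 ± 0.15) and ZT0 (-0.57 ± 0.15), and at the same times in Trx RNAi by -1.11, -1.20 and -0.76, each with an SE of 0.15. At ZT4 and ZT8 neither knockdown differed from the control past the threshold, with differences between -0.01 and 0.17. At ZT12 Trr RNAi was higher by 0.38 ± 0.15, a call lost without replicate 1 among other settings. Mean Eip75B fell by 0.28 in Trr RNAi and by 0.47 in Trx RNAi on the log2 scale (edgeR adjusted p = 3.71e-05 and 8.48e-10), the first not past the threshold with at least 1 CPM in every library or with 3 RUVs factors, which remove variation estimated from replicates.

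Eip93F (FBgn0264490, chromosome arm 3R, 21949114 to 22014539, plus strand), a helix-turn-helix factor known as a specifier of the adult stage, peaked at the same phase. In the control it had 1671, 1987 and 2369 CPM at ZT20 and 1045, 989.9 and 774 CPM at ZT8. Trr RNAi libraries had 667, 673 and 627 CPM at ZT20 and Trx RNAi libraries 631, 639.96 and 669.8 CPM. At that time both knockdowns were below even the lowest control library of the day phase, 769.8 CPM. Mean Eip93F was lower by -0.95 in Trr RNAi and by -0.96 in Trx RNAi. The difference at ZT20 was -1.62 ± 0.12 and -1.63 ± 0.12, against -0.46 ± 0.11 and -0.47 ± 0.11 at ZT4. With 3 RUVs factors the differences at ZT4 (edgeR adjusted p = 0.0641 and 0.0743) and ZT8 (0.129 and 0.22) were not past the threshold. The rhythm was called in the control (edgeR adjusted p = 1.73e-14, size 1.09 ± 0.13) and in neither knockdown, and it changed in both (edgeR adjusted p = 1.47e-07 and 7.87e-09).

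ftz-f1 (FBgn0001078, chromosome arm 3L, 18750607 to 18801309, minus strand), a nuclear receptor known in the prepupa as a competence factor for the next hormone pulse, had the same phase and smaller differences. Its control libraries had 274, 313 and 344 CPM at ZT20 and 156, 154 and 125 CPM at ZT8. The Trr RNAi libraries had 189, 191 and 171 CPM at ZT20 and the Trx RNAi libraries 144, 140.1 and 173 CPM, below the control at that time. ftz-f1 was lower at ZT20 by -0.76 ± 0.16 in Trr RNAi and by -1.02 ± 0.16 in Trx RNAi, and at ZT4, ZT8 and ZT12 no difference was past the threshold. With 3 RUVs factors the Trr call at ZT20 was lost (0.0641). The change of its rhythm was past the threshold in both (edgeR adjusted p = 0.00533 for Trr and 0.00117 for Trx). The first call was lost without replicate 2, replicate 3 or ZT4 (adjusted p between 0.0531 and 0.15) and the second without replicate 2 (0.0796). Mean ftz-f1 differed by -0.18 ± 0.07 in Trr RNAi (edgeR adjusted p = 0.0118) and by -0.41 ± 0.07 in Trx RNAi (1.19e-07). The first was 0.02 with at least 1 CPM in every library and with 3 RUVs factors. The second was -0.20 with 3 RUVs factors and no longer past the threshold (0.199). A noncoding RNA gene on the same strand, lncRNA:CR45939, shares 29.379% of its exon bases.

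Of the 9 members, 7 had a 24-h rhythm in the control, where 42.6% of the 14767 features tested did. Set1 RNAi had 5 such members (34.1% of features), Trr RNAi 1 (5.88%) and Trx RNAi 0 (4.06%). In Trx RNAi, Eip75B alone had an unadjusted p under 0.05 (0.0284), and DESeq2 called 0 members as well. The 5 members with a called rhythm in Set1 RNAi were EcR, Eip74EF, Eip75B, Eip93F and ftz-f1, and in the control their cosines peaked between ZT 19.3 and ZT 20.4. The rhythm of the same 5 changed in Trr RNAi (5 of 9 members, where 21.0% of features changed) and in Trx RNAi (5 of 9, where 17.6% did). A test of any change over the 6 time points, whatever its shape, called 7 members in the control (46.7% of features), 5 in Set1 RNAi (37.9%), 3 in Trr RNAi (Eip75B, br and Hr3, where 9.14% of features were called) and 0 in Trx RNAi (5.86%). When any 1 replicate was left out, at most 1 member was called in Trr RNAi. With only the genotypes compared in the fit, 6 members were called there for any change and 4 for a rhythm. In Trx RNAi, Eip75B (0.00746) and br (0.0364) had an unadjusted p under 0.05, and DESeq2 was not run for this test. Between Trr and Trx RNAi no member changed in rhythm, where 0.0271% of features did, and br alone had an unadjusted p under 0.05 (0.0282), and DESeq2 called 0.

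Model selection of the kind the authors used put the members into several classes. It compares 52 combinations of shared, separate and absent rhythms by the Bayesian information criterion (BIC) and calls a weight of at least 0.4. The authors accounted for batch effects in the knockdown data with RUVseq, which was not done in this selection. Eip74EF (weight 0.717) and ftz-f1 (0.544) were assigned a rhythm that control and Set1 RNAi share and that Trr and Trx RNAi lack. EcR (0.845) and Eip93F (0.66) were assigned separate rhythms in the control and Set1 RNAi and none in Trr and Trx RNAi. Without replicate 2 or replicate 3, EcR was instead assigned a rhythm that control and Set1 RNAi share. Eip93F was so assigned without replicate 3 and reached no weight of 0.4 without replicate 2. A separate rhythm in Set1 RNAi was thus not stable for either. Eip75B (0.759) was assigned a rhythm in all 4 genotypes, shared by Trr and Trx RNAi, and usp (0.487) none. Without replicate 1 the control and Set1 RNAi shared the rhythm of Eip75B, and without replicate 3 Eip75B reached no weight of 0.4. In the main analysis Eip78C, br and Hr3 reached no weight of 0.4. A control rhythm with none in Trr and Trx RNAi was thus selected for 4 of 9 members and for 24.8% of all features tested.

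**Figure D2:**
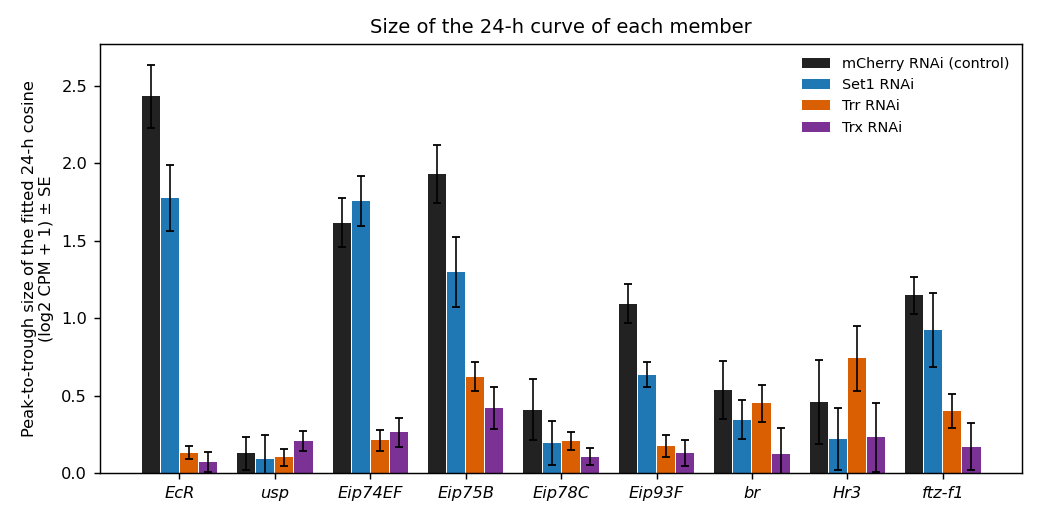
Peak-to-trough size of the fitted 24-h cosine on the log2(CPM + 1) scale (vertical axis, from 0) for each member (horizontal axis) in the 4 genotypes. Bars are fitted values and lines their SE. For EcR the size was 2.43 in the control, 1.78 in Set1 RNAi, 0.13 in Trr RNAi and 0.07 in Trx RNAi.

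These 5 members are long genes, each spanning over 50000 bases. A further member of such a span, br (89738 bases), had its control cosine peak at ZT 3.6. Among the 310 tested FBgn genes of at least that span, 55.5% had a rhythm in the control, and 64.5% of the rhythmic ones peaked between ZT16 and ZT24. Among shorter FBgn genes, the shares were 42.5% and 34.6%. A night peak was therefore frequent among long genes, and the part of gene length in the members' phase was not tested. Among all rhythmic features of the control the size of the EcR cosine stood at the 88th percentile, that of Eip75B at percentile 79.9, Eip74EF at percentile 72, ftz-f1 at percentile 51.3 and Eip93F at percentile 48.2.

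Marker RNA of the control libraries differed between time points too. The summed level of outer photoreceptor markers was highest at ZT12 (122800 ± 6690 CPM, SD of 3 libraries) and lowest at ZT20 (71160 ± 6290 CPM), opposite in phase to the 5 members. The part of that shift in the members' cycle was not tested.

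**Figure D3:**
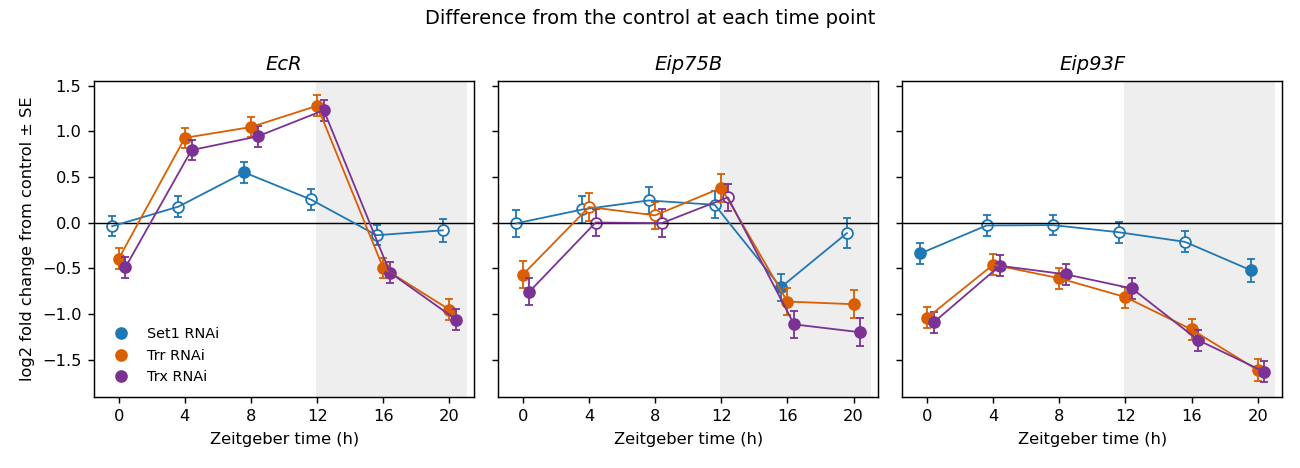
Log2 fold change from the control (vertical axis) ± SE at each zeitgeber time in hours (horizontal axis) for EcR, Eip75B and Eip93F in the 3 knockdowns, with filled points past an adjusted p of 0.05 and open points not. EcR lies above 0 in Trr and Trx RNAi from ZT4 to ZT12 and below 0 from ZT16 to ZT0, whereas Eip93F lies below 0 at all 6 time points.

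br, known as broad, did not follow the night pattern. It encodes a family of BTB zinc-finger factors that drive the prepupal program (FBgn0283451, chromosome X, 1575132 to 1664869, plus strand). In the control it was highest at ZT4, with 441, 367 and 512 CPM, and lower at the other times, where the libraries lay between 175 and 311 CPM. No control library of another time reached the lowest value at ZT4. Its control rhythm was past the threshold (edgeR adjusted p = 0.00411) but not without ZT4 (0.848). Summed markers of lens and pigment cells also peaked at ZT4 in the control, at 4511 ± 1370 CPM against 534 ± 41.4 CPM at ZT16, and those of glia at 1131 CPM against 255.5 CPM. The part of these cells in the ZT4 level of br was not tested.

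br rose in Set1 RNAi. The Set1 RNAi libraries lay between 330.5 and 623 CPM (median 451.5 CPM) against 175 to 512 CPM (median 277 CPM) in the control, and at each of the 6 time points all Set1 RNAi libraries were above all control libraries. The mean was higher by 0.65 ± 0.06 (edgeR adjusted p = 3.02e-13), with differences between 0.37 at ZT4 and 0.93 at ZT12, past the threshold at every time point except ZT4 (0.0891). From ZT0 to ZT20, 11.9%, 12.8%, 15.5%, 28.4%, 9.58% and 10.9% of all features differed between Set1 RNAi and the control. The calls of br at ZT0, ZT8, ZT16 and ZT20 were lost without replicate 2, and those at ZT16 and ZT20 also without replicate 3, whereas that of the mean was kept in both cases. The libraries of Set1 RNAi also held more lens and pigment cell marker RNA, a summed 1366 to 6577 CPM (median 3025 CPM) against 499.5 to 5490 CPM (median 1003 CPM), although 2 of these 5 markers rose, 1 fell and 2 were not called. The summed glia markers had a median of 897.1 CPM against 333.4 CPM, with 1 of 7 higher, 1 lower and 5 not called. The part of these cells in the difference of br was not tested. In Trr RNAi the mean of br was higher by 0.17 ± 0.06 and in Trx RNAi lower by -0.25 ± 0.06. The first call was lost without replicate 1 or replicate 2, and the second with at least 1 CPM in every library or with 3 RUVs factors.

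Eip78C (FBgn0004865, chromosome arm 3L, 21226609 to 21266503, plus strand), like Eip75B a nuclear receptor of the Rev-erb group, had a higher mean in all 3 knockdowns. Its libraries lay between 18.9 and 37.9 CPM in the control, between 34.0 and 58.0 CPM in Set1 RNAi, between 72.8 and 93.9 CPM in Trr RNAi and between 69.3 and 84.4 CPM in Trx RNAi. The Trr and Trx RNAi ranges overlapped with each other and not with the control or Set1 RNAi. The mean was higher by 0.62 ± 0.07 in Set1 RNAi (edgeR adjusted p = 1.56e-11), by 1.58 ± 0.06 in Trr RNAi (1.51e-29) and by 1.46 ± 0.06 in Trx RNAi (5.53e-28). The differences at single times ran from 1.27 to 1.75 for Trr and from 1.23 to 1.64 for Trx. All 12 were past the threshold, where 57.5% to 67.3% of all features were at single times. In Set1 RNAi the differences ran from 0.45 to 0.88 and were not past the threshold at ZT4 (edgeR adjusted p = 0.0525) and ZT20 (0.076). The Set1 calls at ZT0 and ZT16 were lost without replicate 2 or replicate 3. Its rhythm in the control was weak (size 0.41 ± 0.20, edgeR adjusted p = 0.0305) and was lost without replicate 2 or replicate 3.

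Hr3 (FBgn0000448, chromosome arm 2R, 10203995 to 10237348, minus strand) encodes a nuclear receptor related to mammalian ROR, which at the onset of metamorphosis induces ftz-f1. It fell in all knockdowns. Control libraries lay between 36.7 and 159 CPM (median 72.04 CPM), Set1 RNAi between 38.3 and 72.2 CPM, Trr RNAi between 21.9 and 51.8 CPM and Trx RNAi between 16.2 and 36.4 CPM. The highest value was a single control library at ZT20, where its replicates had 82.0 and 75.4 CPM. The Trx RNAi libraries were all below the lowest control library. The mean was lower by -0.44 ± 0.11 in Set1 RNAi (edgeR adjusted p = 0.00054), by -1.18 ± 0.10 in Trr RNAi (1.52e-15) and by -1.52 ± 0.10 in Trx RNAi (9.36e-20). Without replicate 3, which holds that high control library, the Set1 call was lost (0.108), and with 3 RUVs factors that of Trr RNAi (0.0832). Of its exon bases 82.704% are shared with other genes of the same strand, CG12912, CG46321 and lncRNA:CR46322. Read pairs on shared bases were not counted for any of them, so the level of Hr3 rests on the remaining exon bases.

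**Figure D4:**
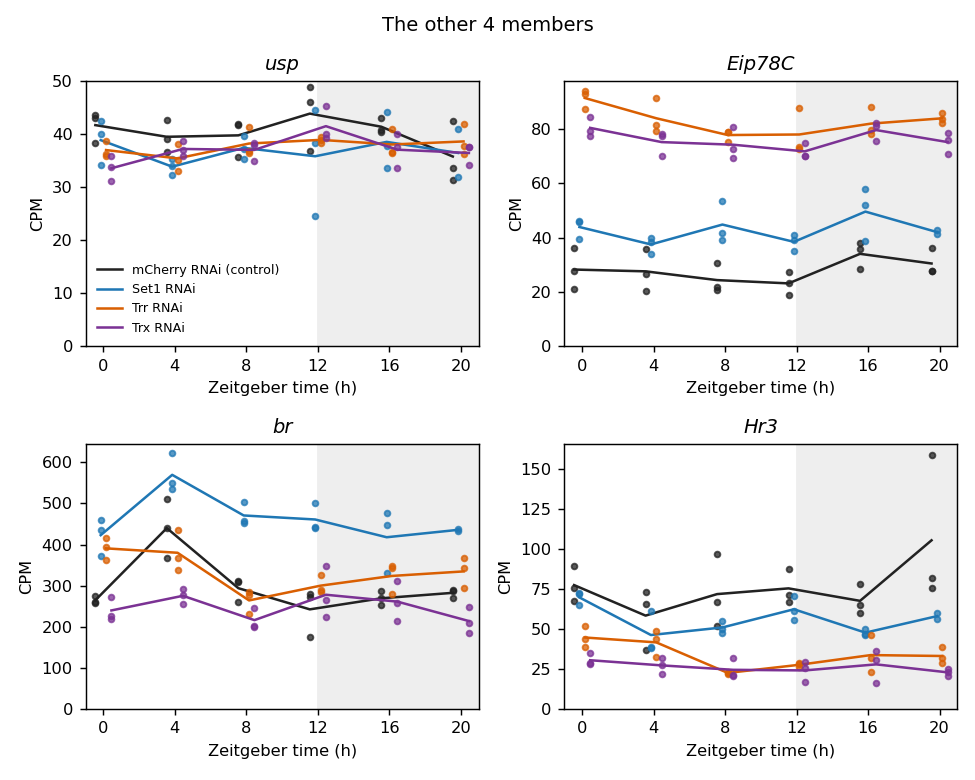
CPM (vertical axis, from 0) against zeitgeber time in hours (horizontal axis) for usp, Eip78C, br and Hr3. Points are single libraries, lines join the means of each genotype, and the dark phase is shaded. Eip78C lies between 69.3 and 93.9 CPM in Trr and Trx RNAi and at most at 37.9 CPM in the control, whereas br is highest in Set1 RNAi.

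Averaged over time, 3 members rose and 5 fell in Trr RNAi, where 44.6% of the features tested rose and 38.1% fell. In Trx RNAi 2 rose and 7 fell, where 44.5% rose and 38.8% fell. In both, most features of the genome changed, so the number of members that changed is near the background. The median log2 fold change over the 9 members was -0.18 in Trr RNAi and -0.41 in Trx RNAi, against 0.08 and 0.09 over all features. At least 2-fold, 1 member was higher (Eip78C, where 28.5% of features were in each comparison) and 2 were lower (Eip74EF and Hr3, where 17.9% of features were in Trr RNAi and 18.7% in Trx RNAi). Both comparisons share the 18 control libraries.

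The members were also counted at single time points. At ZT20, 6 of 9 members were lower in Trr RNAi and 7 of 9 in Trx RNAi, where 30.4% of features were lower in each. Eip78C was the member that was higher. EcR, Eip75B, Eip93F, Hr3 and ftz-f1 had their highest control mean at that time. From ZT0 to ZT16, 5, 2, 3, 3 and 6 members were lower in Trr RNAi and 7, 4, 4, 3 and 6 in Trx RNAi. At those times 57.5% to 67.3% of features differed in either direction. The median over the members was -0.89 in Trr RNAi and -1.06 in Trx RNAi at ZT20, against 0.11 and 0.10 over all features. At ZT12 the medians were 0.02 and -0.08, against 0.27 and 0.22. The day and night medians were not tested against each other.

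**Figure D5:**
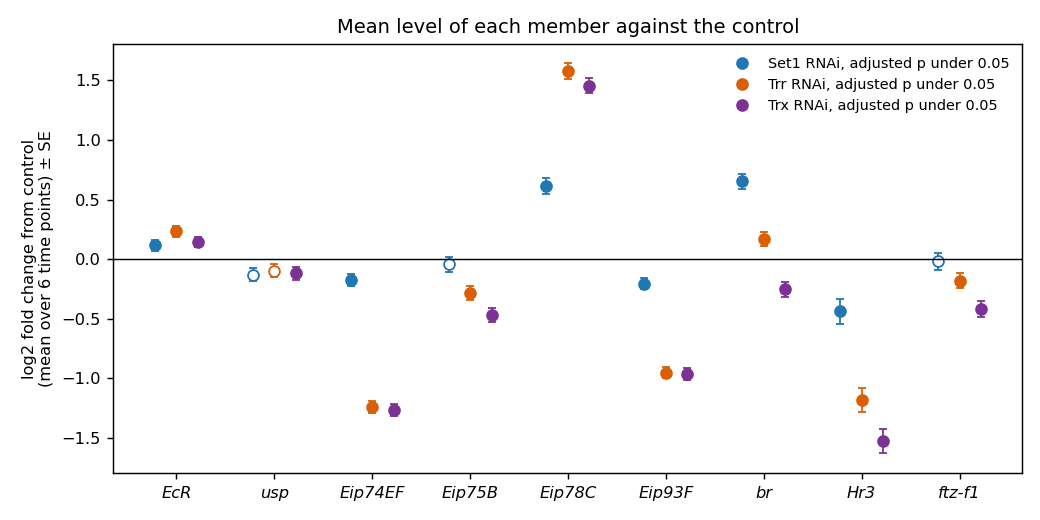
Log2 fold change from the control averaged over the 6 time points (vertical axis) ± SE for each member (horizontal axis) in Set1, Trr and Trx RNAi, with filled points past an adjusted p of 0.05 and open points not. Eip78C is the highest point in Trr RNAi (1.58) and Hr3 the lowest in Trx RNAi (-1.52).

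Set1 RNAi shares its sequencing platform with the control. Its summed outer photoreceptor markers had a median of 72390 CPM against 86280 CPM in the control, with ranges that overlapped. Of 11 tested markers 11 were lower, and the part of this shift in the results was not tested. In Set1 RNAi 3 members rose (EcR, Eip78C and br, where 23.1% of features rose) and 3 fell (Eip74EF, Eip93F and Hr3, where 18.8% fell). None differed at least 2-fold, where 7.26% of features were at least 2-fold higher and 1.66% lower. Without replicate 3 the number lower was 1. EcR kept its cycle in Set1 RNAi, with 158 to 245 CPM at ZT4, ZT8 and ZT12 and 372 to 666 CPM at ZT16, ZT20 and ZT0. Its mean was higher by 0.12 ± 0.05 (edgeR adjusted p = 0.0341), a call lost without replicate 2 and under several other settings. At ZT8 EcR was higher by 0.55 ± 0.11 (0.000308), with 217, 245 and 228 CPM against 178, 144 and 150.1 CPM, also lost without replicate 2. At ZT16 Eip75B was lower by -0.71 ± 0.15, with 447, 884 and 615 CPM against 1077, 1016 and 1087 CPM in the control, and without replicate 1 this call was lost (edgeR adjusted p = 0.0551). Eip93F was lower at ZT20 by -0.52 ± 0.13, a call lost without replicate 2 or replicate 3.

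No member changed in rhythm in Set1 RNAi past the threshold, where 3.6% of features did. EcR, Eip75B and Eip93F had unadjusted p of 0.00604, 0.00556 and 0.00607 (edgeR adjusted p = 0.0918, 0.0879 and 0.0918), and DESeq2 called these 3. Their cosines were smaller in Set1 RNAi than in the control, 1.78 ± 0.21 against 2.43 ± 0.20 for EcR, 1.30 ± 0.22 against 1.93 ± 0.19 for Eip75B and 0.64 ± 0.08 against 1.09 ± 0.13 for Eip93F. For Eip74EF the sizes were 1.76 ± 0.16 and 1.62 ± 0.16.

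Trr and Trx RNAi share a platform and were set against each other directly. Of the members, 4 were higher in Trr than in Trx RNAi, where 5.81% of features were, and none lower, where 3.51% were. All 9 fitted differences were above 0, and the share of all features above 0 was not counted. Those of Eip93F (0.01 ± 0.05), usp (0.02 ± 0.05) and Eip74EF (0.03 ± 0.05) were smaller than their SE. Under other settings they went as low as -0.03, -0.01 and -0.02. br differed by 0.42 (edgeR adjusted p = 4.7e-07), with 231 to 437 CPM (median 339.5 CPM) in Trr RNAi and 185 to 347 CPM (median 247 CPM) in Trx RNAi, which overlap. Hr3 differed by 0.34 (0.0213), ftz-f1 by 0.24 (0.0129) and Eip75B by 0.18 (0.0447). Without replicate 1, replicate 2 or ZT4 the count of members higher in Trr RNAi was 1. EcR (0.09), Eip74EF (0.03), Eip93F (0.01), usp (0.02) and Eip78C (0.12) did not differ past the threshold. With only the genotypes compared in the fit, EcR (edgeR adjusted p = 0.0304) and Eip78C (0.00831) did, and the count was 6.

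Other genes of the pathway were counted in lists chosen by function. Of 8 coregulators of the receptor, 1 rose and 6 fell in Trr RNAi, and 1 rose and 7 fell in Trx RNAi, where 44.6% and 44.5% of all features rose and 38.1% and 38.8% fell. trr itself, the gene targeted in Trr RNAi, is one of those that fell, so the count there includes the target. In the control trr was highest at ZT4 with 377.5 ± 24.2 CPM. It was lowest at ZT20 with 140.8 ± 53.8 CPM, where EcR was highest, whereas EcR was lowest at ZT12. The change of the trr cycle was past the threshold in both knockdowns (edgeR adjusted p = 8.31e-05 and 1.32e-06). ash2, a subunit of all 3 methyltransferase complexes, was the coregulator that rose, from a median of 7.19 CPM in the control to 11.8 CPM in Trr RNAi and 12.4 CPM in Trx RNAi, and with 3 RUVs factors its difference was -0.06 in Trr RNAi and 0 in Trx RNAi.

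Of 13 tested nuclear receptors outside the 9 members, 8 rose and 5 fell in Trr RNAi and likewise 8 rose and 5 fell in Trx RNAi, against the same 44.6% and 44.5% of features that rose and 38.1% and 38.8% that fell. svp, which specifies outer photoreceptor types in the developing eye, rose from a median of 19.1 CPM in the control to 89.6 CPM in Trr RNAi and 85.0 CPM in Trx RNAi, 4.9 and 4.81 times. knrl, a gap-gene-related receptor, rose from a median of 1.3 CPM to 12.4 and 13.8 CPM. With 3 RUVs factors neither knrl call was past the threshold (adjusted p = 0.0845 in Trr and 0.1 in Trx RNAi). In Set1 RNAi 1 of the 13 rose and 2 fell, where 23.1% of features rose and 18.8% fell.

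Of 8 genes of ecdysone synthesis, 2 rose and 5 fell in Trr RNAi, 2 rose and 4 fell in Trx RNAi, and 3 rose and 1 fell in Set1 RNAi. The shares of all features that rose and fell were 44.6% and 38.1%, 44.5% and 38.8%, and 23.1% and 18.8% in this order. spok, a cytochrome P450 of the pathway's black-box step, was higher in every knockdown, with medians of 2.73 CPM in the control, 33.4 CPM in Set1 RNAi, 5.95 CPM in Trr RNAi and 10.6 CPM in Trx RNAi. The largest difference was in Set1 RNAi (5.93 times, edgeR adjusted p = 1.46e-19). Control libraries reached 12.5 CPM, and spok cycled in the control (edgeR adjusted p = 6.93e-07).

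Of 4 genes for ecdysone transport, inactivation and membrane reception, 3 rose and 1 fell in Trr and in Trx RNAi, where 44.6% and 44.5% of features rose and 38.1% and 38.8% fell. The one that fell was DopEcR, the membrane receptor for dopamine and ecdysteroids, from a median of 1880 CPM in the control to 391 CPM in Trr RNAi and 309 CPM in Trx RNAi. Cyp18a1, which inactivates the hormone, rose from a median of 3.74 CPM to 17.6 and 21.1 CPM, although 1 control library reached 24.8 CPM. Of 14 tested other ecdysone-induced genes, 4 rose and 7 fell in each, where features as a whole rose in 44.6% and 44.5% and fell in 38.1% and 38.8%. Among those that rose was Eip55E (a median of 3.13 CPM in the control, 11.2 CPM in Trr RNAi and 11.4 CPM in Trx RNAi). Eip63E, a cyclin-dependent kinase gene, fell from a median of 1060 CPM to 391 and 337 CPM.

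The profile of each member over the 24 genotype and time point means of log2(CPM + 1) was set against 6306 other genes. For EcR the most similar were kmr (Pearson r = 0.969) and jumu (0.938). Eip74EF was nearest to pyd (0.985) and l(1)G0196 (0.984), Eip93F to AMPdeam (0.978) and ppk25 (0.977), and Eip75B to CG4629 (0.94) and pigs (0.931). Eip78C was nearest to trol and fend (0.982 each), Hr3 to Sap47 (0.979) and cpx (0.965), ftz-f1 to Tlk (0.922) and PAN3 (0.916), and br to RhoGAP1A (0.89) and Mur2B (0.876), whose exons overlap with 0.936% of those of br. usp had no close match, with mRNA-cap (0.772) and mbt (0.768). Among the members, Eip74EF and Eip93F were most alike (0.952), Eip75B resembled ftz-f1 (0.861) and EcR (0.801), and Eip78C ran opposite to Hr3 (-0.85). These are descriptions over 24 points that share platform and library composition within a genotype.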

How the data were processed

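Nuclear RNA-seq libraries of 4 RNAi genotypes at 6 time points with 3 replicates were used. According to the labels and file headers, the authors trimmed reads (cutadapt 3.7, Trimmomatic 0.39 among the tools named), aligned them with HISAT2 2.2.1 to BDGP6.46 and deposited raw counts of read pairs on exons of 24278 features (featureCounts 2.0.1, annotation release 111, without strand and without counting pairs that fit more than 1 feature). Nothing was normalized or filtered in these counts.

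A feature was tested if all replicates of 1 or more of the 24 groups had 1 CPM or above (14767 features). CPM values use TMM-scaled library sizes (edgeR 4.0.16, R 4.3.3), and FPKM values divide these by exon length. TMM factors ran from 0.718 to 0.902 in mCherry and Set1 RNAi and from 1.118 to 1.361 in Trr and Trx RNAi. edgeR's quasi-likelihood test was fitted to all 71 libraries together, with Benjamini-Hochberg adjustment over all features and a threshold of 0.05. Group means gave mean and single time point differences, and 24-h cosine and sine terms per genotype gave rhythm and change of rhythm. A 2-fold count also asked for an adjusted p under 0.01. Model selection followed the published procedure of dryR with DESeq2 1.42.0 dispersions. The main fits and the model selection used no RUVs factors, whereas the paper accounted for batch effects in the knockdown data with RUVseq. Scripts were tested on simulated data. The paper describes its replicates as biological, while the labels do not say that they are separate cohorts of flies. The p-values measure the spread between libraries, from which a technical part was not separated. Read pairs without molecular identifiers are not independent molecules. All pairs of replicates differed by more than sampling noise.

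Named are the 9 members, the 3 targeted genes, of each pathway list the 2 genes with the largest called difference from the control among those with at least 10 CPM on average in 1 genotype, and for each member the 2 most similar genes. The members and lists were chosen with earlier results of these data known. Alternatives were other scalings, filters and fits, removal of unwanted variation with RUVs, a replicate block, and leaving out a replicate or, chosen after seeing the data, ZT4.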

Additional observations from a re-analysis of the deposited data

Results flagged for a closer look

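The 10 results below were set apart because the 24-h rhythm of a member differed between a knockdown and the control by a test of the difference itself, edgeR's quasi-likelihood test on the cosine and sine terms. For Trr RNAi, the adjusted p was 1.49e-13 for EcR, 2.92e-08 for Eip74EF, 3.63e-05 for Eip75B, 1.47e-07 for Eip93F and 0.00533 for ftz-f1. For Trx RNAi, it was 2.25e-13 for EcR, 3.13e-08 for Eip74EF, 1.81e-06 for Eip75B, 7.87e-09 for Eip93F and 0.00117 for ftz-f1. In all 10 the fitted cosine was smaller in the knockdown than in the control, and both sets share the control libraries. Of all features, 21.0% changed in rhythm in Trr RNAi and 17.6% in Trx RNAi. Called rhythms went from 42.6% of features in the control to 5.88% in Trr RNAi and 4.06% in Trx RNAi. Both ftz-f1 calls were lost without replicate 2, and that in Trr RNAi also without replicate 3 or ZT4. For EcR the 3 libraries of each knockdown were above the control at ZT4, ZT8 and ZT12 and below it at ZT16, ZT20 and ZT0, a crossing that none of the other members showed at all 6 time points. The share of all features with such a crossing was not counted. Platform and genotype cannot be told apart in these comparisons.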

How the results depend on the processing

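The counts of members with a rhythm in the control (7) stayed between 6 and 7 under 14 alternatives, those in Set1 RNAi at 5 and those in Trx RNAi at 0, and the counts of members with a change of rhythm in Trr and Trx RNAi (5 each) between 4 and 5. Other counts moved. Members lower in Set1 RNAi were 1 to 4 when single replicates were left out (3 in the main analysis) and member and time point pairs called in Set1 RNAi 4 to 16 (15), where leaving out replicate 2 leaves Set1 RNAi at ZT20 with 1 library that is assumed to vary like the other groups. Members higher in Trx RNAi were 1 to 2 (2) and members higher in Trr than in Trx RNAi 1 to 3 (4). Members with any change over time were 0 to 1 in Trr RNAi (3) and 0 to 1 in Trx RNAi (0), and members with a rhythm in Trr RNAi 0 (1). Members lower in Trr RNAi were 3 instead of 5 with at least 1 CPM required in every library and with 3 RUVs factors. Members higher in Trx RNAi were 1 instead of 2 with 1 RUVs factor, with FBgn features only and without ZT4, and members higher in Trr than in Trx RNAi were 1 instead of 4 without ZT4. When only the genotypes compared entered the fit, members with any change over time in Trr RNAi were 6 instead of 3 and members with a rhythm there 4 instead of 1. Any change over time in Trx RNAi was called for 1 member with at least 1 CPM in every library and with 3 RUVs factors. A change of rhythm in Set1 RNAi was called for 3 members by DESeq2 and for 2 with at least 1 CPM in every library.

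Single values changed sign under these settings, with the cause not tested. With at least 1 CPM in every library the log2 difference was 0.11 for usp and 0.02 for ftz-f1 in Trr RNAi, 0.12 for usp in Trx RNAi, and 0.19 and 0.07 for trx in Trr and Trx RNAi. DESeq2, and its size factors in the edgeR fit, gave 0 for usp in Trx RNAi and 0.11 for trx in Trr RNAi. With 3 RUVs factors it was 0.02 for ftz-f1 in Trr RNAi, 0.11 and 0 for Set1 in Trr and Trx RNAi, and -0.06 and 0 for ash2 in Trr and Trx RNAi. The median over all features in Trr and Trx RNAi moved by 0.12 with size factors of DESeq2, by -0.17 and -0.18 with 1 RUVs factor and by -0.25 and -0.27 with 3, and with 3 the share of higher features among those called went from 53.9% to 36% in Trr RNAi.

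Replicate numbers did not pair the libraries in general: of 71 pairs of same-numbered libraries, 12 correlated above 0.1, and the median was 0.009. Among the 12 was every pair of Set1 RNAi and the control at ZT0 (0.567, 0.242 and 0.174). With the replicate block 3392 features were higher and 2751 lower in Set1 RNAi (3404 and 2776 without it), and no count of members moved by more than 1.5 times.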
